A study of Mus musculus with 80 samples.

Results

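Mammary tumours of MMTV-Myc mice differed in how strongly they expressed the genes of chromosome 6, and by fixed thresholds 27 of 80 tumours formed the high group and 48 the low group. Each tumour has a chromosome 6 score. The score is the median, over 459 chromosome 6 genes, of the log2 level relative to that gene's mean over the 80 tumours, minus the same median over all genes of the array. A tumour was called high above 0.15 and low below -0.05, and 5 tumours in between were called middle. The groups were thus chosen by measured chromosome 6 expression, so the difference between the groups in the score and in every chromosome 6 gene is described below without a test. Genes on the other chromosomes did not enter the choice, except through the median over all genes, and are tested, as is the relation of the score to genotype, which the choice did not use either.

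Tumour cells often carry extra or missing copies of whole chromosomes, and the transcripts of a gained chromosome tend to rise together by a modest factor. The ERK branch of Ras signalling runs from receptor kinases through Ras, Raf and MEK to ERK, which induces ETS-family transcription factors and also its own brakes, such as dual-specificity phosphatases and Sprouty proteins. In the mammary gland, secretory luminal cells make caseins, whey proteins and milk fat globule proteins under the control of factors such as Elf5. No DNA was measured here, so a score is a property of RNA levels and not of chromosome copies.

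The tumours came from FVB mice in which the promoter of the mouse mammary tumour virus (MMTV) was joined to Myc, which drives the oncogene in mammary epithelium. Each of 4 backgrounds gave 20 tumours. One was E2F wild type, another lacked E2F1 (E2F1 null), another lacked E2F2 (E2F2 null), and the last kept a single working copy of E2F3 (E2F3 heterozygous). Every background, the wild type included, carried the Myc transgene. Each flash-frozen tumour gave 1 array, a 1-colour Affymetrix hybridisation of total RNA. The labels give no ages and no treatment beyond freezing. The luminal epithelial markers Krt8, Krt18, Epcam and Cdh1 were above the detection filter in all 80 tumours.

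Tumours labelled with the same number before the hyphen (53 numbers, of which 19 cover 46 tumours) may share an animal, so this number was a random block in the gene tests and the unit of the permutation tests. In tests between the classes, 7 numbers that hold both a high and a low tumour count once in each. The labels do not say what the number marks, and p-values measure the spread between tumours and between numbers. The median log2 level of an array was 8.78 ± 0.05 (SD, n = 25 numbers) in high and 8.73 ± 0.06 (SD, n = 35 numbers) in low tumours. The difference was 0.048 (p = 0.00218, two-sided permutation test with 100000 resamples, and p = 0.00592 without those 7 numbers). The 3'/5' log2 ratios of the Gapdh and actin control probe sets differed by 0.0011 (p = 0.955) and 0.072 (p = 0.255) in the same test. The part of the array level in the results was not tested beyond refits with other scalings. With each array centred on the median of its genes off chromosome 6, limma called 1320 genes higher and 1604 lower (adjusted p below 0.05). One low tumour, E2F1 null replicate 6, stood apart, with a mean correlation to the other arrays of 0.807 against a median of 0.906; without it limma called 1467 genes higher and 1376 lower at a Benjamini-Hochberg adjusted p below 0.05, against 1529 and 1373 with it.

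The high tumours had scores from 0.151 to 0.302 with a median of 0.265, and the low tumours from -0.219 to -0.058 with a median of -0.145. The means differed by 0.396 on the log2 scale, a ratio of 1.32-fold. The lowest high tumours had scores of 0.151, 0.173 and 0.191, the highest low tumours -0.058, -0.076 and -0.090, and the middle tumours nearest to the thresholds 0.105 and -0.014. By the thresholds, only tumours called middle, here 5, can fall between the highest low and the lowest high tumour. The thresholds also set most of the gap of 0.209 between them, so the gap is no sign of separate groups.

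**Figure D1:**
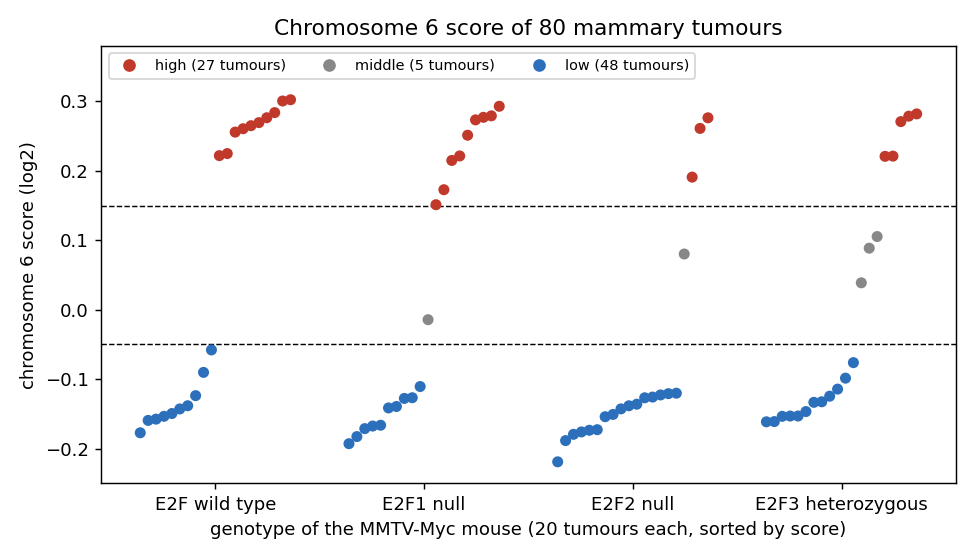
Chromosome 6 score (log2) of each tumour, sorted within genotype, with dashed lines at the thresholds of 0.15 and -0.05 and points coloured by class. All 4 genotypes hold both high and low tumours, and E2F2 null has the fewest high ones, 3 of 20.

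High tumours occurred in every background. The wild type background held 10 high and 10 low tumours, E2F1 null 9 and 10, E2F2 null 3 and 16, and E2F3 heterozygous 5 and 12. Over label numbers, the mean score was 0.063 ± 0.196 (SD, n = 16) in wild type and -0.060 ± 0.174 (SD, n = 11) in E2F2 null tumours. That difference of -0.123 did not pass the threshold (permutation p = 0.101, adjusted p = 0.304 over 3 backgrounds by the Benjamini-Hochberg method). With every tumour as its own unit the difference was -0.148 and the adjusted permutation p 0.049; over the settings run the adjusted p was 0.049 to 0.304. Fisher's exact test on 3 against 10 high tumours gave p = 0.0407, adjusted p = 0.122. E2F1 null and E2F3 heterozygous tumours differed from wild type by -0.015 (adjusted permutation p = 0.813) and -0.064 (adjusted permutation p = 0.595).

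Tumours of 1 label number did not always share a class. Among the 19 numbers with several tumours, 7 held both a high and a low tumour, 5 were all low, 2 were all high and 5 joined a middle with a low tumour. The 7 mixed numbers came from all 4 backgrounds and held 7 high and 10 low tumours.

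On chromosome 6 itself the shift was broad and modest. Of the 459 genes, 385 (83.9%) had a higher mean in high than in low tumours, against 49.7% of 8302 genes on other chromosomes. The median log2 difference was 0.42, a ratio of 1.34-fold, with quartiles of 0.21 and 0.58, and 277 genes (60.3%) lay between 0.2 and 0.7, where 15.6% of the other genes lay. By quartile of mean level, the median difference was 0.27 among the dimmest genes and 0.43, 0.49 and 0.42 in the brighter quartiles.

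A second set of 287 detected probe sets for chromosome 6 genes, which the rule did not use, gave a difference of 0.414 between the groups, and all 27 high tumours lay above every low tumour on it. These probe sets share tumours, and often transcripts, with those of the rule. The 447 probe sets below the detection filter gave 0.025, and 1 of 27 high tumours lay above every low one.

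The shift ran along the whole chromosome. With the genes in RefSeq order and divided into 10 equal stretches, every high tumour (27 of 27) had a median above the low tumours' mean in all 10 stretches, as did 4 of 5 middle tumours and 0 of 48 low tumours. The stretch medians of high tumours were between 0.25, in the stretch from Ephb6 to Mturn, and 0.45, in the stretch from Cdca3 to Emp1. Middle tumours had stretch medians of 0.18 to 0.27, between those of low and high tumours in every stretch. The same genes chose the classes, and levels are relative to the low tumours' own mean. The order of the classes was thus largely set by the choice, and the stretches show only how evenly the shift ran. The classes overlapped most in the stretch from Csgalnact2 to Usp5, where 13 of 27 high tumours lay above every low tumour, and in that from Ephb6 to Mturn, where 20 did.

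**Figure D2:**
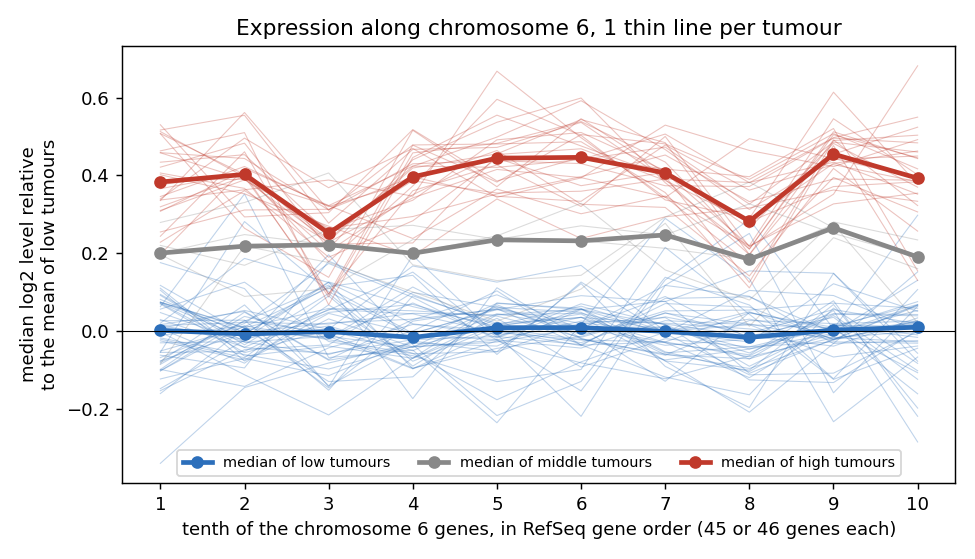
Median log2 level of chromosome 6 genes relative to the mean of the low tumours (y axis) in 10 stretches of 45 or 46 genes in RefSeq order (x axis); thin lines are single tumours and thick lines class medians. High tumours run at 0.25 to 0.45, middle tumours at 0.18 to 0.27, and low tumours about 0.

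A small group of chromosome 6 genes differed far more than the rest. Chn2, which encodes a GTPase-activating protein for Rac, ran on the log2(intensity + 5) scale from 2.98 through a median of 5.21 to 10.17 in low tumours and from 4.21 through 9.92 to 11.20 in high tumours. The mean difference was 3.93, or 15.2-fold, and 26 of 27 high tumours exceeded the low median, although the ranges overlapped. Eps8, an adaptor of epidermal growth factor receptor signalling, differed by 2.13, the protease inhibitor A2m by 2.10, the ethanolamine kinase Etnk1 by 1.70 and the adhesion molecule Chl1 by 1.67. Sox5 (1.54), the ganglioside synthase gene St3gal5 (1.54), Klf15 (1.50), Tgfa (1.48) and the lysine-degrading enzyme gene Aass (1.46) complete the 10 largest. In all, 27 of the 459 chromosome 6 genes were higher by more than 1, against 150 of 8302 genes on other chromosomes.

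Among growth and cell cycle genes of chromosome 6, 30 of 35 were higher in high tumours, with a median difference of 0.49. Over all 459 chromosome 6 genes 83.9% were higher with a median of 0.42, so the count is no result about growth genes. Tgfa encodes a ligand of the epidermal growth factor receptor; its level ran from 5.60 through 7.07 to 9.76 in low and from 7.03 through 8.65 to 10.88 in high tumours. Met, the receptor of hepatocyte growth factor, differed by 0.65, but the highest low tumour reached 13.64, above the highest high tumour at 9.30. Braf, a kinase between Ras and MEK, differed by 0.39 (1.31-fold), with 25 of 27 high tumours above the low median.

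Foxm1, a transcription factor of mitotic genes, ran from 3.93 through 6.74 to 7.29 in low tumours and from 6.93 through 7.45 to 8.12 in high tumours. All 27 high tumours exceeded the low median and 17 exceeded every low tumour. The replicative helicase gene Mcm2 differed by 0.67 and the spindle checkpoint gene Mad2l1 by 0.70, with 15 and 10 high tumours above every low one. Cdkn1b, the cyclin-dependent kinase inhibitor p27, was also higher, by 0.47. Of the repair genes, Rad52 differed by 0.39 and Rad18, a ubiquitin ligase of damage tolerance, by 0.49.

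Housekeeping and metabolic genes of the chromosome showed the same broad shift, with 24 of 29 higher and a median difference of 0.36. Hk2, a hexokinase at the entry of glycolysis, differed by 0.61 with all 27 high tumours above the low median, whereas the glycolytic enzyme gene Tpi1 differed by 0.09 and the lactate dehydrogenase gene Ldhb by 0.14. Cops7a, a subunit of the COP9 signalosome that was singled out after its values were seen, was the only chromosome 6 gene with every high tumour above every low tumour. Its level ran from 8.88 through 9.69 to 9.99 in low tumours and from 10.08 through 10.25 to 10.63 in high tumours, and the 5 middle tumours lay between 9.79 and 10.04.

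Of the 459 chromosome 6 genes, 74 had a lower mean in high tumours, 18 of them by a difference below -0.5. On other chromosomes 4173 of 8302 genes had a lower mean, 534 of them by a difference below -0.5. The largest such differences belonged to the immunoglobulin segment Igkv8-30 (-1.75), Hepacam2 (-1.70), the secreted ligand Wnt5b (-1.61), the interferon-induced protease Usp18 (-1.42) and Sval2 (-1.14). For Wnt5b, 26 of 27 high tumours lay below the low median.

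Off chromosome 6, limma called 2902 of 8302 genes (35.0%) at a Benjamini-Hochberg adjusted p below 0.05, 1529 higher (18.4%) and 1373 lower (16.5%) in high tumours, with genotype in the model. The median difference over all of these genes was -0.001. No gene off chromosome 6 separated the groups fully, and 56 of the 8302 had all 27 high tumours above the low median. No dependence of the class contrast on genotype was detected: limma called 0 genes for the interaction at an adjusted p below 0.05, and 255 had an unadjusted p under 0.05.

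These counts vary with the tumours used. With wild type tumours left out limma called 878 genes higher and 782 lower, and within the wild type tumours alone 658 and 484. Inside the 7 mixed label numbers, with 17 tumours, limma called 0 genes, with 1080 at an unadjusted p under 0.05 and a lowest adjusted p of 0.244. Of the 2902 genes called over all tumours, 2881 (99.3%) had a difference of the same sign there; these 17 tumours are also part of that larger fit. In these 7 numbers the mean of the high tumours lay above that of the low tumours for Abcb1b in 7, for Dusp6 and Stk26 in 6 and for Etv4 in 4, and below it for Rtp4 in 6 and for Csn1s1 in 5.

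The highest rises off chromosome 6 were in genes of varied function. Col2a1, a fibrillar collagen gene best known from cartilage and located on chromosome 15, ran from 2.79 through 3.95 to 10.51 in low tumours and from 4.20 through 8.56 to 11.85 in high tumours. The fitted difference was 3.19 ± 0.52 (SE) on the log2 scale (limma adjusted p = 1.8e-06). Only 7 of 48 low tumours, against 22 of 27 high ones, exceeded the detection filter of log2 6.31, so the low level is not resolved and no fold is given. Tesc, which encodes the calcium-binding protein tescalcin, rose by 2.78 ± 0.43 (SE), 6.85-fold (limma adjusted p = 6.5e-07). It ran from 4.56 through 6.60 to 11.71 in low and from 6.11 through 9.70 to 11.73 in high tumours, so some low tumours were as high as the top of the high group. A second Tesc probe set gave 3.38.

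The other 10 of the 12 largest rises had log2 differences of 2.33 to 2.55, with limma adjusted p values of 9.6e-05 or smaller. They were Tacr3, a neurokinin receptor, Emid1, the secreted carbonic anhydrase Car6, the tight junction gene Cldn10, Prom1 (CD133), the drug efflux pump gene Abcb1b, Bex4, Bex2, the kinase gene Stk26 and the scaffold gene Homer2. Stk26 ran from 6.53 through 9.78 to 12.06 in low tumours and from 9.30 through 12.05 to 12.66 in high tumours, and 12 of 27 high tumours exceeded every low tumour. Homer2 did so in 11 of 27 high tumours. Tacr3 and Abcb1b exceeded the detection filter in 5 and 9 of 48 low tumours, against 17 and 23 of 27 high ones. Among the 110 genes named off chromosome 6 and past the threshold, 14 had fewer than 10 tumours of 1 class above the filter, so the size of their difference is uncertain. Prom1 overlapped more, as no high tumour exceeded the highest low tumour at 11.65.

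**Figure D3:**
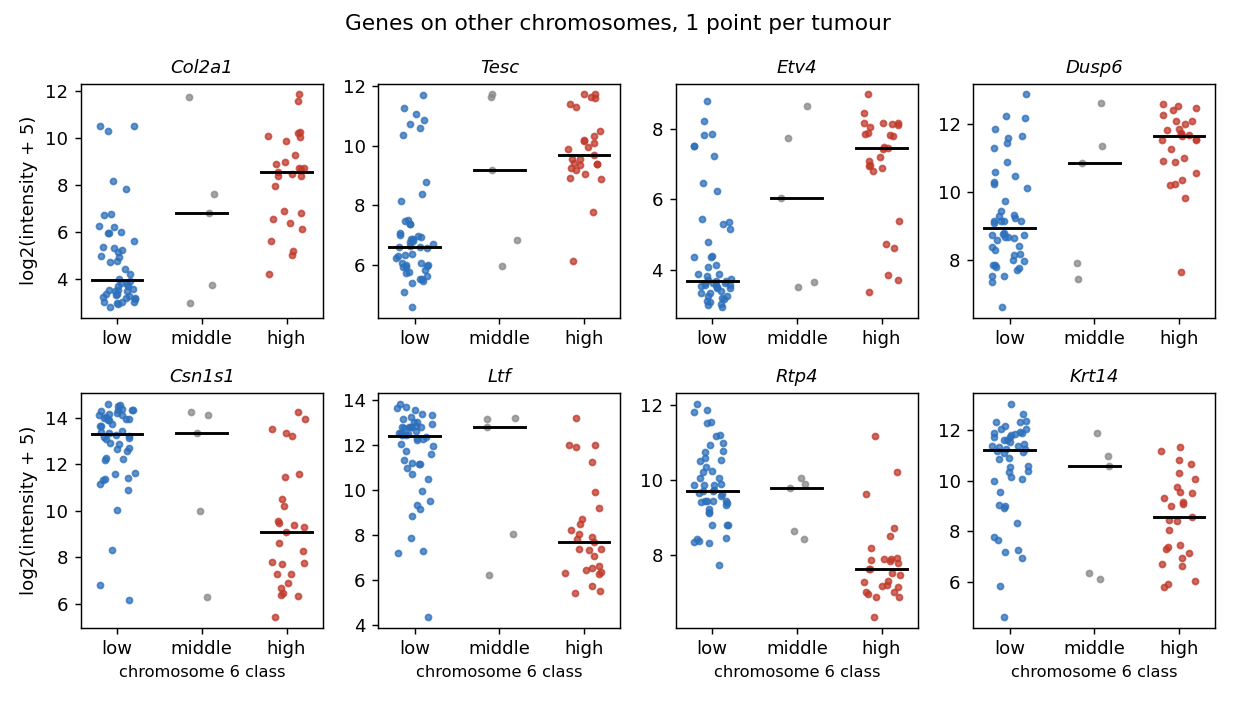
Levels on the log2(intensity + 5) scale (y axis) of 8 genes off chromosome 6 by chromosome 6 class (x axis); each point is a tumour and the bar is the class median. Col2a1, Tesc, Etv4 and Dusp6 have higher medians and Csn1s1, Ltf, Rtp4 and Krt14 lower medians in high than in low tumours, and the ranges overlap for every gene.

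Most genes that report ERK output rose. Of 19 tested members off chromosome 6, 14 rose and 1 fell, and their median difference was 0.98 against -0.001 over all tested genes. The 73.7% rising stands beside 18.4% of all tested genes. Of the 15 members past the threshold, 3 had a class median below the detection filter, so the size of their difference is uncertain. Etv4, an ETS transcription factor induced by ERK, ran from 2.95 through 3.70 to 8.78 in low tumours and from 3.38 through 7.44 to 8.97 in high tumours. The fitted difference was 2.33 ± 0.41 (SE) (limma adjusted p = 6.9e-06), and 21 of 27 high but only 8 of 48 low tumours exceeded the detection filter, so no fold is given. The related factor Etv5, above the filter in 26 high and 14 low tumours, rose by 2.18 ± 0.38 (SE) (limma adjusted p = 5.6e-06).

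Dusp6, the phosphatase that removes phosphate from ERK, ran from 6.62 through 8.94 to 12.87 in low tumours and from 7.64 through 11.64 to 12.57 in high tumours. It rose by 2.00 ± 0.35 (SE), 3.99-fold (limma adjusted p = 6.8e-06), although the highest value of all belonged to a low tumour. Phlda1 rose by 1.34 ± 0.23 (SE), 2.53-fold (limma adjusted p = 5.2e-06). The other 10 risen members had differences between 0.53 and 1.21, and the 1 member that fell was Dusp1 (-0.42), named after its value was seen.

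Of 20 tested components of the Ras and Raf pathway itself off chromosome 6, 2 rose and 4 fell (20.0%), with a median of -0.01, while 18.4% of all tested genes rose and 16.5% fell. The MEK2 gene Map2k2 fell by 0.33 (limma adjusted p = 3.2e-05), Rras2 fell by 0.28 (limma adjusted p = 0.008), Ralgds fell by 0.25 (limma adjusted p = 0.014), and Rasa1, which encodes a GTPase-activating protein that turns Ras off, rose by 0.26 (limma adjusted p = 0.028). A second Rras2 probe set gave -0.14 and did not pass the threshold (limma adjusted p = 0.16). Of 17 receptor kinase genes, 8 rose (47.1%) and 2 fell (11.8%), with a median of 0.15. Fgfr1 rose by 1.21 ± 0.27 (SE) (limma adjusted p = 3.3e-04), the ephrin receptor genes Epha2 and Ephb4 by 1.01 and 0.66 (limma adjusted p = 1.1e-06 and 6.6e-06), and Kit by 0.95 (limma adjusted p = 0.0024).

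Milk genes made up 6 of the 12 largest falls. Of 18 tested milk and secretory members, 14 fell (77.8%, beside 16.5% of all tested genes) and 1 rose, with a median difference of -1.68. Of the 15 members past the threshold, 5 had a class median below the detection filter, so the size of their difference is uncertain. Csn1s1, a casein gene, ran from 6.17 through 13.32 to 14.60 in low tumours and from 5.43 through 9.10 to 14.24 in high tumours. It fell by 3.44 ± 0.57 (SE), 10.9-fold (limma adjusted p = 2.1e-06), yet 4 of 27 high tumours lay above the low median. In bulk tumours, fewer secretory cells and less milk RNA per cell cannot be told apart.

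Ltf, the lactoferrin gene, ran from 4.38 through 12.40 to 13.83 in low and from 5.45 through 7.70 to 13.19 in high tumours. It fell by 3.38 ± 0.54 (SE) (limma adjusted p = 1.4e-06), and 26 of 27 high tumours lay below the low median. Csn2 (-3.12), the whey acidic protein gene Wap (-3.01), Csn1s2a (-2.89) and the milk fat globule gene Btn1a1 (-2.62) also fell. Other detected probe sets gave -1.27 for Btn1a1, -2.29 to -3.12 for Csn1s2a and -3.74 for Csn2, so the size of these falls depends on the probe set. For Csn2, 9 high tumours lay below every low tumour, while 5 lay above the low median, so the high group held both milk-poor and milk-rich tumours. The member that rose was Lpo (1.53), a milk peroxidase named after its value was seen.

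Among the remaining 6 of the 12 largest falls were genes of secreted and surface proteins of mucosal epithelium and the acute phase. Serum amyloid genes Saa2 (-3.09) and Saa1 (-3.02), the carbonyl reductase gene Cbr2 (-2.96), the mucin genes Muc4 (-2.81) and Muc15 (-2.64), and the polymeric immunoglobulin receptor gene Pigr (-2.70) fell, each at a limma adjusted p of 3.2e-04 or smaller. Muc4 exceeded the detection filter in 30 low tumours and 1 high tumour. Muc15 ran from 6.22 through 12.19 to 12.97 in low and from 5.47 through 8.73 to 11.95 in high tumours, and all 27 high tumours lay below the low median.

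Luminal lineage genes did not move one way. Of 20 tested members, 6 rose and 5 fell, with a median of -0.02. The luminal factor genes Foxa1 and Spdef rose by 1.92 and 1.91 (limma adjusted p = 3.3e-04 and 2.8e-04), above the detection filter in 15 and 8 of 48 low and in 20 and 16 of 27 high tumours, whereas the luminal keratin gene Krt19 fell by 1.76 and Elf5, a factor of the alveolar lineage, fell by 1.33 (limma adjusted p = 5.4e-05 and 2.4e-05). Foxa1 ran from 2.70 through 5.52 to 10.12 in low tumours and from 4.40 through 7.88 to 11.59 in high tumours. Elf5 lay below the low median in 26 of 27 high tumours.

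Of 14 basal genes, 4 fell (28.6%, beside 16.5% of all tested genes) and 0 rose, with a median of -0.36. The basal keratin gene Krt14 ran from 4.63 through 11.21 to 13.02 in low tumours and from 5.81 through 8.56 to 11.33 in high tumours. It fell by 2.04 ± 0.47 (SE), 4.12-fold (limma adjusted p = 3.8e-04), while a second Krt14 probe set gave -0.98, and Krt5 fell by 1.54 (limma adjusted p = 0.0037). Acta2 and Trp63, also basal markers, differed by -0.32 and -0.06 and did not pass the threshold. In the squamous list, 5 of 14 rose (35.7%, beside 18.4% of all tested genes), and the list median was -0.08. Lgals7 (1.72), S100a14 (1.13) and Pkp1 (0.96) were among the rises, and Dmkn fell by 1.54.

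Most interferon-response genes fell. Of 27 tested members off chromosome 6, 19 fell (70.4%, beside 16.5% of all tested genes) and 0 rose, with a median of -1.01. Of these 19, 8 had a class median below the detection filter, so the size of their fall is uncertain. Rtp4 ran from 7.75 through 9.71 to 12.03 in low tumours and from 6.35 through 7.63 to 11.18 in high tumours. It fell by 1.97 ± 0.25 (SE), 3.91-fold (limma adjusted p = 2.3e-08), and 15 of 27 high tumours lay below every low tumour. The antiviral genes Oas2, Ifit1 and Ifit3 fell by 1.41, 1.37 and 1.37 (limma adjusted p of 7.7e-04 or smaller), and exceeded the detection filter in 5, 4 and 3 of 27 high and 37, 31 and 32 of 48 low tumours. Usp18, described above among the chromosome 6 genes that were lower, belongs to this response.

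Neither Myc nor the measured E2F genes passed the threshold between the classes. Myc ran from 12.48 through 13.51 to 13.92 in low tumours and from 13.13 through 13.55 to 13.88 in high tumours, a difference of 0.09 ± 0.07 (SE) that did not pass the threshold (limma adjusted p = 0.28). E2f1 differed by 0.07 (limma adjusted p = 0.54) and E2f3 by 0.16 (limma adjusted p = 0.14). In the E2F and pocket protein list 1 of 10 rose and 1 fell: Rbl2 rose by 0.31 (limma adjusted p = 0.0028), and Rb1, the retinoblastoma gene, fell by 0.91 ± 0.18 (SE), 1.88-fold (limma adjusted p = 5.1e-05). Rb1 lay below the low median in 27 of 27 high tumours. The Myc, Max and ribosome biogenesis list had 3 rises and 3 falls among 31 (9.7% each). In both lists the shares of rises and falls were below the 18.4% and 16.5% of all tested genes. The largest in the Myc, Max and ribosome biogenesis list were Mlxip (-0.36), Mxi1 (0.30), Mga (-0.25) and Wdr43 (0.19). A second Wdr43 probe set gave 0.01 and did not pass the threshold (limma adjusted p = 0.93).

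Most cell cycle genes off chromosome 6 leaned upward, though most did not pass the threshold, as was so for 5400 of 8302 tested genes. Differences were positive for 31 of 34 mitosis genes and 31 of 34 replication genes, against 4126 of 8302 tested genes. Of 34 mitosis genes, 9 rose, 0 fell and 25 did not pass (median 0.16), and of 34 replication genes, 10 rose, 0 fell and 24 did not pass (median 0.15). Racgap1, which acts in cytokinesis and lies on chromosome 15, rose by 0.65 ± 0.11 (SE) (limma adjusted p = 6e-06), the centromeric histone gene Cenpa by 0.45, Aurkb by 0.36 and Dlgap5 by 0.36. A second Racgap1 probe set gave 0.32. Among replication genes Uhrf1 rose by 0.51, Mcm10 by 0.39, Cdc6 by 0.33 and Rfc5 by 0.32. Shares of 26.5% and 29.4% rising stand beside 18.4% over all tested genes. In the p53 and apoptosis list 3 of 26 rose (11.5%) and 4 fell (15.4%), below the 18.4% and 16.5% of all tested genes. The rises were led by Cdkn1a (0.75) and Mdm2 (0.55), with Perp at 0.37, and Btg2 had the largest fall (-0.72). A second Cdkn1a probe set gave 0.57 and did not pass the threshold (limma adjusted p = 0.27).

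Stress and energy lists held more falls than rises, with 30.3% to 45.8% of their members falling beside 16.5% of all tested genes. Hypoxia and glycolysis genes had 11 falls and 3 rises of 24 (median -0.26), with Ndrg1 at -0.85, P4ha2 at -0.83 and Bnip3 at -0.73 among the falls and Egln3 at 0.82 among the rises. Of 20 unfolded protein response genes 9 fell and 2 rose, with Sdf2l1 (-0.54), Chac1 (-0.51), Atf3 (-0.47) and Herpud1 (0.41) the largest. Oxidative phosphorylation genes had 10 falls and 1 rise of 33, all small, with Uqcrq at -0.51 and Ndufa1 at -0.31. Immediate early and heat shock genes had 8 falls and 1 rise of 19, among them Btg2, Hspa1b (-0.65), Fos (-0.62) and, rising, Ier3 (0.80).

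The cholesterol, Wnt and mesenchymal transition lists had shares of rises and falls near or below the 18.4% and 16.5% of all tested genes, so their counts are no result about the lists. Cholesterol and fatty acid genes had 4 rises, among them Sqle (0.52) and Fdft1 (0.50), and 4 falls, among them Scd1 (-0.83) and Acss2 (limma adjusted p = 6.5e-04), of 23. Wnt output genes had 3 rises and 2 falls of 15, with the secreted Wnt antagonist gene Sfrp2 falling by 2.54 ± 0.37 (SE) (limma adjusted p = 2.4e-07) and another antagonist gene, Wif1, rising by 1.88 ± 0.34 (SE) (limma adjusted p = 1e-05), above the detection filter in 5 low and 16 high tumours. Of 22 mesenchymal transition genes 4 rose, among them Tgfb1 (1.10) and Twist1 (1.04, above the detection filter in 6 low and 14 high tumours), and 2 fell.

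**Figure D4:**
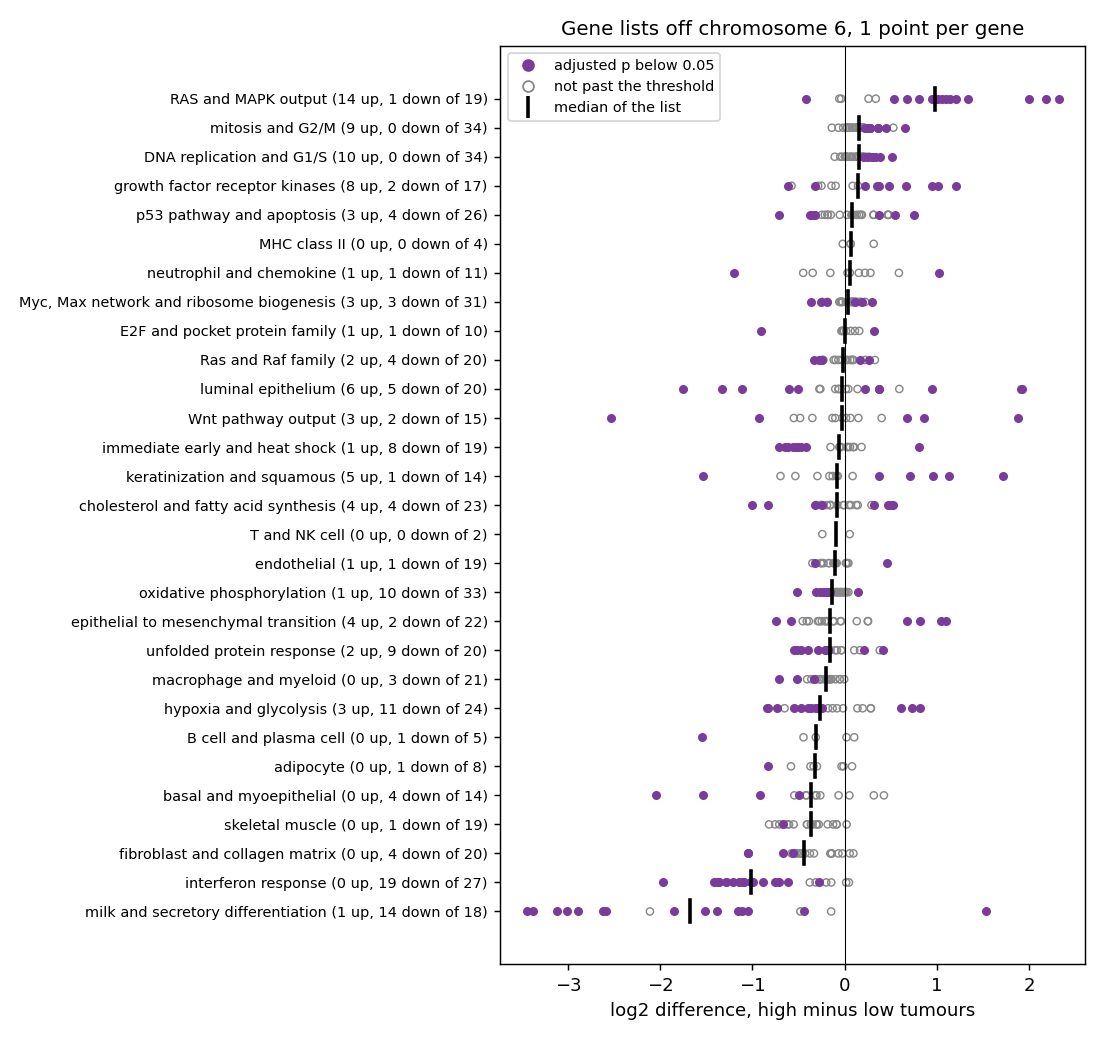
Log2 difference, high minus low tumours (x axis), of each tested member off chromosome 6 of the 29 gene lists (rows), with filled points past an adjusted p of 0.05 and a bar at the list median. RAS and MAPK output has the highest median, 0.98, and milk and interferon response the lowest, -1.68 and -1.01.

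Markers of other cells in the tumours had shares of falls near or below the 16.5% of all tested genes, 20.0% in the fibroblast and 14.3% in the macrophage list among them. The signs of several of these lists still leaned downward. Differences were positive for 2 of 20 fibroblast genes (median -0.44) and 0 of 21 macrophage genes (median -0.20). They were positive for 1 of 19 muscle genes (median -0.37) and 1 of 8 adipocyte genes (median -0.32), against 4126 of 8302 tested genes. Endothelial genes had 5 of 19 positive, and neutrophil and chemokine genes 7 of 11. Of 20 fibroblast and collagen genes 4 fell, Dcn by 1.05, Lum by 1.05, Col1a1 by 0.67 and Postn by 0.56, and 0 rose. Macrophage genes had 3 falls of 21 (Cd14, Cybb and Adgre1), adipocyte genes 1 of 8 and muscle genes 1 of 19, each with 0 rises. Endothelial genes had 1 rise (Ramp2) and 1 fall (Flt1) of 19, neutrophil and chemokine genes 1 rise (Cxcl1) and 1 fall (S100a8) of 11, and the B cell list 1 fall (Jchain, -1.54) of 5. Flt1 fell by 0.32, and its other detected probe sets gave -0.38 and -0.11, of which the latter did not pass the threshold (limma adjusted p = 0.56). The tested T and NK cell genes (2) and MHC class II genes (4) gave 0 calls, with Thy1 at 0.06, Zap70 at -0.24, Cd74 at 0.07 and H2-DMa at 0.32.

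Summed over the defining markers, the luminal intensity ran from 21358 through 33734 to 42652 in high and from 18475 through 40473 to 65211 in low tumours. The fibroblast sum had medians of 6247 in high and 8376 in low tumours, and the macrophage sum 7485 and 8139. The basal sum had medians of 3117 and 5711. All 4 ranges overlapped, Cd3e, Cd3g, Cd79a and Ms4a1 of T and B cells were below the detection filter, and the part of these cell types in the results was not tested.

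Of the other chromosomes, chromosome 15 differed most between the classes. Its score, taken over 356 genes in the same way, ran from -0.264 through 0.188 to 0.501 in high tumours and from -0.319 through -0.167 to 0.479 in low tumours. The means per label number were 0.114 ± 0.194 (SD, n = 25) and -0.087 ± 0.182 (SD, n = 35), a difference of 0.201 (permutation p = 0.0002, adjusted p = 0.0005 over 19 chromosomes). Without the 7 label numbers that lie in both classes, an alternative added after seeing the data, the difference was 0.234 (n = 18 and 28 numbers, adjusted permutation p = 0.0005). Inside those 7 numbers the high tumours had the higher chromosome 15 score in 4 and the lower in 3. A chromosome 15 score above 0.15 was found in 18 of 27 high, 3 of 5 middle and 8 of 48 low tumours. Of the 356 chromosome 15 genes 181 rose and 19 fell, a share of 50.8% rising against 18.4% of all tested genes.

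**Figure D5:**
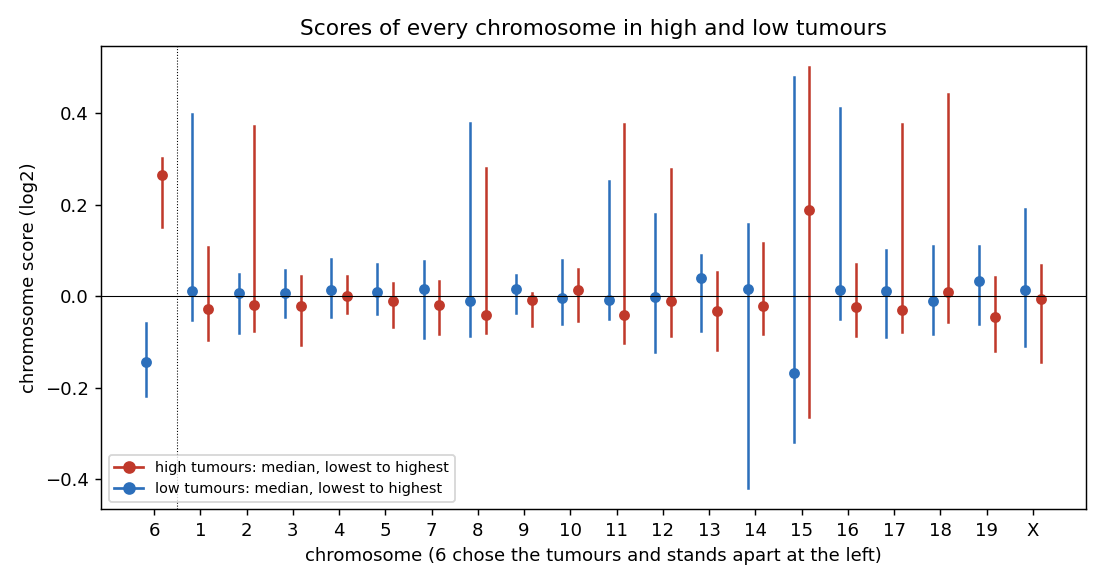
Chromosome score (log2, y axis) of high and low tumours for each chromosome (x axis); points are medians and lines run from the lowest to the highest tumour. Chromosome 6 chose the tumours; chromosome 15 has medians of 0.188 in high and -0.167 in low tumours.

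Differences of the other chromosomes were small. The largest was that of chromosome 19 at -0.078 (adjusted permutation p = 9.5e-05, from the smallest p the resamples can give), followed by chromosome 13 at -0.064 and chromosome 1 at -0.044. A score subtracts the median over all genes, which includes chromosomes 6 and 15. With a median over the other chromosomes only, an alternative added after seeing the data, chromosome 19 differed by -0.052 (adjusted permutation p = 3.8e-04), chromosome 13 by -0.038 (adjusted p = 0.0019) and chromosome 1 by -0.019 (adjusted p = 0.24). Chromosome 15 then differed by 0.227 (adjusted p = 0.0011), and rises also passed the threshold on chromosome 18, at 0.053 (adjusted p = 0.0014), chromosome 10, at 0.028 (adjusted p = 0.0026), and chromosome 4, at 0.014 (adjusted p = 0.028). The scaling thus set which of the small differences passed, with 9 chromosomes past the threshold in the first scaling and 6 in the second. Single tumours stood out on some chromosomes: scores above 0.15 were found on chromosome 11 in 3 high and 3 low tumours, and on chromosome 8 in 2 high and 3 low tumours.

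Since chromosome 15 moved with the classes, the gene contrast was also fitted with the chromosome 15 score as a term. limma then called 1141 genes higher and 1060 lower; Etv4 differed by 2.08 (adjusted p = 4.1e-04), Dusp6 by 1.79 (4.0e-04), Csn1s1 by -3.42 (5.5e-05) and Rtp4 by -2.17 (1.2e-07). Among the 29 tumours with a chromosome 15 score above 0.15, of which only 8 were low for chromosome 6, limma called 160 genes higher and 158 lower, and among the other 51 it called 890 and 810. Among the 29, several genes named above differed the other way, Prom1 by -0.45, Fgfr1 by -0.10, Kit by -0.17, Cdkn1a by -0.81, Ier3 by -0.81 and Egln3 by -1.15, and of these Egln3 passed the threshold (limma adjusted p = 0.021). No gene passed the threshold for an interaction of class with the chromosome 15 score (lowest limma adjusted p = 0.058, 883 genes at an unadjusted p under 0.05). The part of chromosome 15 in the gene differences was not tested beyond these fits.

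Levels by both chromosomes show how the low tumours varied. Phlda1 had medians of 12.52 and 12.24 in high tumours with and without a high chromosome 15 score, and 12.30 and 10.88 in low tumours with and without one. Tesc gave 9.73, 9.70, 9.68 and 6.34 in the same order, and Prom1 9.97, 10.30, 9.40 and 6.23. For these 3 genes low tumours with a high chromosome 15 score had a median nearer to that of high tumours than to that of the other low ones. Dusp6 (11.39, 11.85, 10.79 and 8.75) and Etv5 (8.26, 8.32, 7.24 and 5.31) did the same. So did Stk26, Homer2, Cldn10 and Bex2 among the rises and Saa1, Saa2, Cbr2, Muc15 and Wap among the falls. Col2a1 gave 8.47, 8.66, 5.08 and 3.87, and Csn1s1 8.68, 9.32, 12.80 and 13.55, so for these genes the low tumours of both kinds lay away from the high ones. For Tacr3, Emid1, Car6, Abcb1b, Bex4, Ltf, Csn2, Csn1s2a, Pigr and Btn1a1 the low tumours of both kinds also lay nearer to each other. These groups hold 18, 9, 8 and 40 tumours and were not compared by a test.

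The 5 middle tumours did not form a uniform group. On chromosome 6 all 5 exceeded the low median for Bid, a pro-apoptotic member of the Bcl2 family, with values from 9.93 through 10.26 to 11.31. Off chromosome 6 they spread over the range of both classes: Dusp6 ran from 7.45 through 10.86 to 12.61, with 3 above and 2 below the low median, and Csn1s1 ran from 6.28 through 13.34 to 14.25. limma called 0 of 8302 genes (0.0%) between middle and low tumours at an adjusted p below 0.05, with 299 at an unadjusted p under 0.05, and with 5 middle tumours smaller differences could not be detected.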

How the data were processed

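The deposited table holds MAS5 intensity values of 22690 probe sets on 80 arrays. The authors made them with Affymetrix Expression Console, per the submitters' processing notes, and each array's trimmed mean is about 500, so a change in total RNA per cell cannot be seen. No source used here names a version or a genome build.

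Intensities became log2(value + 5). Fold changes are on that scale, which understates the change of low genes. Of 22626 probe sets that are not controls, 20380 carry 1 symbol, 691 several and 1555 none; the last 2 kinds were left out. The probe set with the highest mean stood for each of 12393 genes, and 8769 genes exceeded 74.6, the 40th percentile, on 10 or more arrays. Gene names, chromosomes and gene order came from RefSeq GRCm38.p6, which thus set the genes of each chromosome score and the genes tested. There, 8 genes had no chromosome and were not tested.

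Class (high, middle, low) and genotype were fitted over all 80 arrays in R 4.3.3 by limma 3.58.1, with statmod 1.5.0 (trend and robust moderation, two-sided), with the label number as a random block (consensus correlation 0.15) and Benjamini-Hochberg adjustment over the 8302 genes off chromosome 6. Precision is limited by the number of arrays, and the median SE of a log2 difference was 0.0855. The script was tested on simulated data. Chromosome scores and array measures were first averaged within label numbers, then compared by permutation with 100000 resamples.

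The members, gene lists and tests were chosen with earlier results of these data known. Named genes are the 10 largest and 5 smallest differences and up to 12 list members on chromosome 6, the 12 largest rises and falls elsewhere, up to 4 of each list, and Myc, E2f1 and E2f3; 1 gene of that rule is not reported here. Lists are described by counts and medians. Calculations used Python 3.11.15, numpy 2.4.6, pandas 2.3.3, scipy 1.17.1 and matplotlib 3.10.9.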

Additional observations from a re-analysis of the deposited data

How the results depend on the processing

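Main counts were 1529 genes higher and 1373 lower. They stayed within 1.5 times, in both directions, under 19 of 25 settings run, among them other pseudocounts, filters, scalings and thresholds and the chromosome 15 score as a term. Without the replicate block, arrays taken as independent gave 1508 and 1391; the label number is not known to mark an animal. Scaling to genes off chromosome 6 gave 1320 and 1604. Outside 1.5 times were: wild type left out, 878 and 782; wild type only, 658 and 484; every probe set on its own, 2178 lower; within label numbers, 0 and 0; chromosome 15 score above 0.15, 160 and 158; the other tumours, 890 and 810. The last 3 were added after seeing the data and use 17, 29 and 51 tumours. With every probe set on its own, 13334 probe sets were tested in place of 8302 genes. The share called there was 33.0% against 35.0%, so its count is not on the same footing. The E2F2 null score difference was -0.148 with every array on its own (adjusted permutation p = 0.049).

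Of 110 named genes past the threshold, 12 kept direction and call among tumours with a chromosome 15 score above 0.15, 79 kept direction only and 19 turned: Cdc6 -0.15, Cdkn1a -0.81, Cxcl1 -1.01, Cybb 0.072, Dcn 0.072, Egln3 -1.15 (limma adjusted p = 0.021), Fgfr1 -0.10, Ier3 -0.81, Jchain 0.48, Kit -0.17, Lum 0.15, Perp -0.082, Pkp1 -0.61, Prom1 -0.45, Rasa1 -0.17, Sdhb 0.060, Sqle -0.16, Uhrf1 -0.093 and Uqcrc1 0.069. Genes not past the threshold turned there too: Cd74 -0.11, E2f1 -0.14, H2-DMa -0.043 and Thy1 -0.17. In tumours with a score of 0.15 or less, Cd74 (-0.11) and Myc (-0.012) turned. Elsewhere Cd74 turned with thresholds of 0.20 and -0.10 (-0.035), E2F1 null left out (-0.10), wild type only (-0.022) and the chromosome 15 term (-0.13), E2f1 (-0.017) and Thy1 (-0.071) with E2F1 null left out, and E2f3 (-0.10) and Zap70 (0.26) within label numbers. None of the 110 turned in any setting other than a chromosome 15 score above 0.15. The causes were not tested.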
